A study of Mus musculus with 6 samples.

Results

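The mitochondrial solute carriers described here are 47 of the 41838 genes in the deposited table. They were chosen by name, as the protein-coding Slc25a genes together with Ucp1, Ucp2 and Ucp3. The rule set aside 3 further family members, Slc25a13, Slc25a15 and Slc25a20. The rule uses no expression value, but the members were chosen with earlier results of these data known. Poly(A) RNA of mouse liver was sequenced in 3 HKO and 3 flox mice, which the labels call independent biological replicates. The HKO group is named Alkbh5-HKO in the protocol and Alkbh5-CKO in the sample labels, and neither abbreviation is spelled out. The flox group has the genotype Alkbh5flox/flox and was the comparison group. ALKBH5 is an RNA demethylase that acts on N6-methyladenosine, and the series set out to describe its effects on liver function. Mice of both groups were on normal chow, with 9 weeks given once as their age and once as the time on chow. The sources used here do not give the deleted part of Alkbh5, the driver of any Cre, the sex of the mice or their feeding state.

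The inner mitochondrial membrane is closed to most charged metabolites, and the SLC25 family carries them across it. Its members exchange ATP for ADP and bring in phosphate, and they move organic acids, amino acids, nucleotides, cofactors and iron between the cytosol and the matrix. In the liver these steps link mitochondria to fatty acid and glucose synthesis, to the urea cycle and to heme production. The uncoupling proteins belong to the same family, and UCP1 lets protons back into the matrix so that brown fat makes heat. Many other members of the family have no settled substrate.

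Levels are given as FPKM, the authors' deposited unit, which divides a gene's fragments by its length and by a library size. Differences are HKO minus flox on the scale log2(FPKM + 1), on which the added 1 understates the change of genes with low levels. Genes with a mean of at least 1 FPKM over the 6 libraries were tested with limma, and p-values were adjusted by the Benjamini-Hochberg (BH) method over all 10453 genes tested, with a threshold of 0.05. Per library, 14907384 to 17034754 reads could be recovered from the FPKM. Alkbh5 had 0.508, 0.444 and 0.476 FPKM in HKO livers, against 17.8, 16.8 and 14.8 FPKM in flox livers. HKO library 1 stood apart from the other libraries of its group, at -38.6 on the first principal component, where HKO libraries 2 and 3 lay at -15.7 and -4.51 and the flox libraries between 13.7 and 22.7. The summed hepatocyte markers, 8 of 8 found, lay between 54581 and 58035 FPKM in HKO livers and between 49472 and 58365 FPKM in flox livers. Most of that sum is Alb, which was higher in HKO livers without overlap, while Apoa1 and Hnf4a were lower in HKO livers without overlap, and 0 of the 8 passed limma, with 1 at an unadjusted p under 0.05, Hnf4a. In bulk tissue, fewer cells of a type and less RNA per cell cannot be told apart.

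Of the 47 carriers, 33 reached the level for testing, 14 stayed below it, and 3 of those 14 were listed at 0 in each library. By limma with BH adjustment 1 carrier fell in HKO livers, Slc25a30, and 0 rose. Limma voom on the recovered reads gave 2 lower carriers, Slc25a30 and Slc25a42, and 0 higher. Of all genes tested, 0.220% passed as lower and 0.268% as higher. At an unadjusted p under 0.05 there were 8 lower and 2 higher carriers, together 30.3% of the 33, against 17.0% of all genes tested. The groups did not overlap for 8 lower and 3 higher carriers, which is 24.2% and 9.09% of the 33, against 12.6% and 12.8% of all genes tested. Slc25a33, among the lower carriers in both counts, reached the level for testing only through the flox libraries, where it was higher. Slc25a11, among the higher carriers without overlap, reached it only through HKO library 1. Neither gene lends these counts any weight. Mean levels were lower in HKO livers for 19 of the 33 carriers and higher for 14, and the median difference was -0.05, beside -0.02 over all genes tested.

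**Figure D1:**
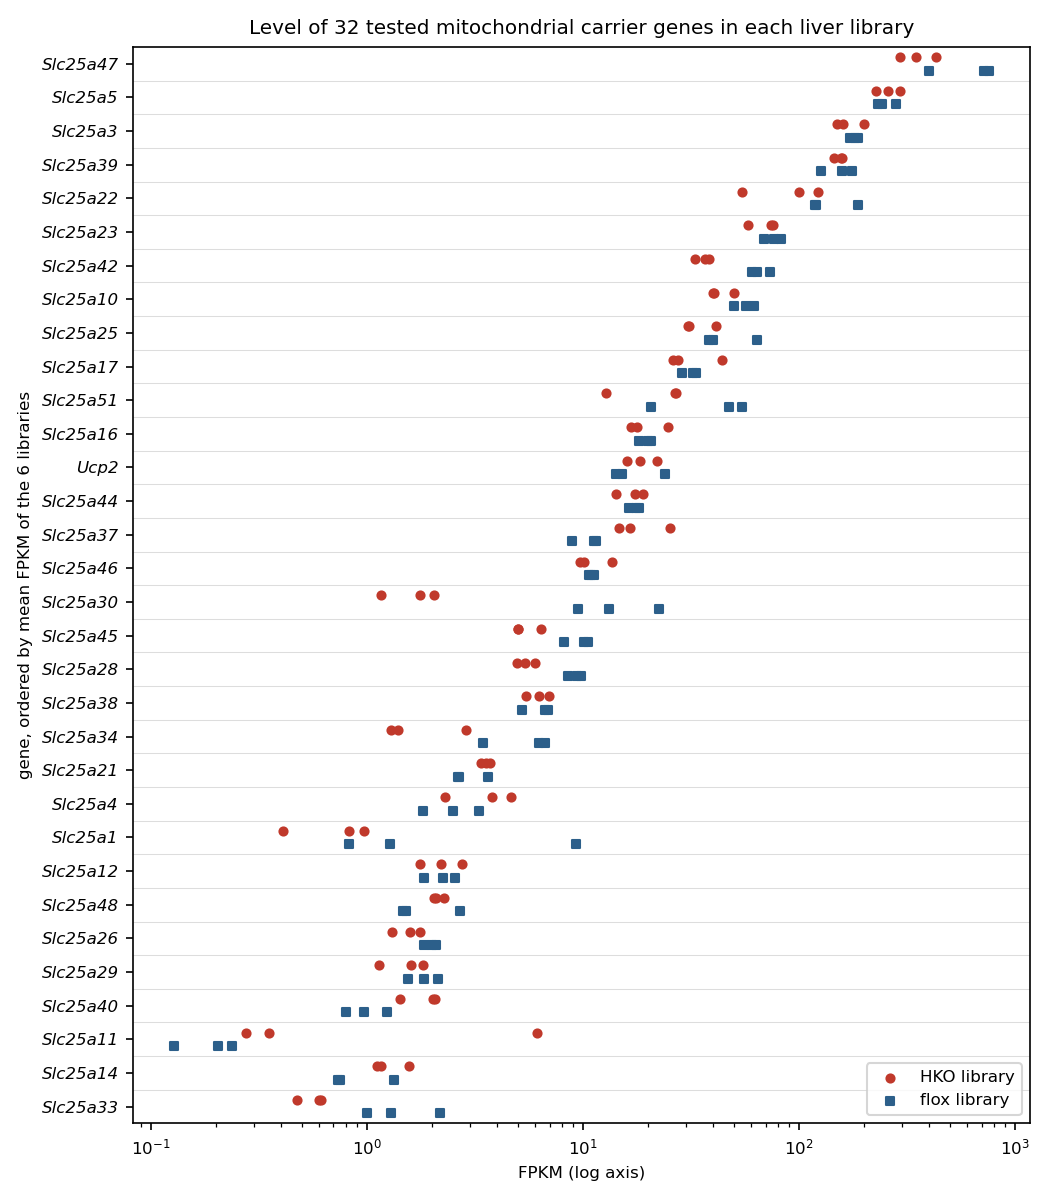
Level of 32 tested carriers in each of the 6 libraries, in FPKM on a log axis, with HKO libraries as circles above flox libraries as squares for each gene. Slc25a47 is the highest at 293 to 758 FPKM, and the gap between the groups is widest for Slc25a30, at 1.16 to 2.05 FPKM in HKO livers and 9.48 to 22.5 FPKM in flox livers.

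A handful of genes carried most of the carrier messages. The 5 highest, Slc25a47, Slc25a5, Slc25a3, Slc25a39 and Slc25a22, made up 72.5%, 72.8% and 75.0% of the summed carrier FPKM in HKO livers and 75.5%, 75.7% and 71.0% in flox livers. That sum was 1400, 1255 and 1548 FPKM in HKO livers, against 2039, 1921 and 1485 FPKM in flox livers. HKO library 3 lay above flox library 3, so the groups overlapped. Slc25a47 alone took 24.8%, 23.4% and 27.7% of the sum in HKO livers and 37.1%, 37.2% and 26.7% in flox livers, which overlap in the same pair of libraries.

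Slc25a30 is a close relative of the uncoupling proteins and is also known as kidney mitochondrial carrier protein 1. It lies on the minus strand of chromosome 14 at 75757535 to 75787042 in GRCm38.p6 and shares no bases with another listed gene. In HKO livers it had 2.05, 1.16 and 1.76 FPKM, from 139, 90 and 112 reads, against 13.2, 9.48 and 22.5 FPKM in flox livers, from 903, 558 and 1564 reads. Every HKO library lay far below every flox library, and within flox the third was more than 2-fold above the second. The means were 1.66 ± 0.455 FPKM in HKO livers and 15.1 ± 6.72 FPKM in flox livers (SD, n = 3 each), which leaves 11.0% of the flox level. The difference was -2.53 (SE 0.30, 95% interval -3.22 to -1.84), with a limma BH-adjusted p of 0.0345. With 5 libraries the difference stayed between -2.80 and -2.21, but the adjusted p (limma, BH) was 0.0959, 0.120 and 0.0520 without HKO library 1, 2 or 3, and 0.151 and 0.0818 without flox library 1 or 2. Only without flox library 3 did the call hold, at 0.0335.

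The 300 bases around the RefSeq start of Slc25a30 are shown because this is the carrier that passed the test. The window is chr14:75786988-75787287 on the minus strand of GRCm38.p6, 250 bases before the start and 50 after it, read 5′ to 3′ on the gene's strand. A search for AGGTCA, the half-site bound by several nuclear receptors, and for AGGTCANAGGTCA, a direct repeat of it of the kind PPARs bind, found no match on either strand, and 66.7% of its bases are G or C. The second motif contains the first.
Slc25a30: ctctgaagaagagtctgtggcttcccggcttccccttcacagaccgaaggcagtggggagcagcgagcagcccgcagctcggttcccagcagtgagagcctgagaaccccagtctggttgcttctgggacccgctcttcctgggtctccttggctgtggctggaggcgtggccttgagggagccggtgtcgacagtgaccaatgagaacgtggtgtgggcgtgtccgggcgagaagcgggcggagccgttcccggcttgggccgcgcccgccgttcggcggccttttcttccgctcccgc

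Of the 6 uncoupling proteins and close relatives 3 were tested, and Slc25a30 alone passed. Ucp2, the uncoupling protein found in many tissues and in immune cells, had 16.0, 21.9 and 18.3 FPKM in HKO livers, against 23.9, 14.3 and 15.1 FPKM in flox livers. The libraries were mixed, and the difference was 0.10 (95% interval -0.41 to 0.61), with a limma BH-adjusted p of 0.833. Markers of Kupffer cells, the liver macrophages in which Ucp2 is known to be expressed, summed to 200 to 358 FPKM in HKO livers and 196 to 294 FPKM in flox livers, with 10 of 10 found, 0 of them passing limma and 0 at an unadjusted p under 0.05. T and NK cell markers, 8 of 8 found, summed to 4.37 to 6.72 FPKM in HKO livers and 1.55 to 2.66 FPKM in flox livers. Only 2 of these 8 were tested, and 0 passed limma with BH adjustment. Both were higher without overlap, as were 12.8% of all genes tested, and both had an unadjusted p under 0.05. The 6 with a mean under 1 FPKM all overlapped between the groups. The part of Kupffer, T and NK cells in the Ucp2 level was not tested.

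Ucp1, the heat-producing protein of brown fat, was listed at 0 in all 6 libraries, where 3 reads would have given at most 0.131 FPKM. The adipocyte markers were near 0 as well, with sums of 0 to 0.0541 FPKM in HKO livers and 0 to 0.0524 FPKM in flox livers and with Lep and Retn at 0 throughout. Ucp3, the muscle form, had 0 reads in each HKO liver, against 0, 1 and 2 reads in flox livers. A count of 0 allows up to 0.0817 FPKM of Ucp3, so no difference was detectable at this depth. Of 6 skeletal muscle markers, Ckm and Myh1 were at 0 throughout, and the sum was 0.384 to 0.584 FPKM in HKO livers and 0.222 to 0.626 FPKM in flox livers. Slc25a14, which like Slc25a27 is a relative described mainly in brain, had 1.12, 1.56 and 1.16 FPKM in HKO livers, against 1.33, 0.736 and 0.749 FPKM in flox livers. Its difference was 0.24 and the groups overlapped, while Slc25a27 lay between 0.238 and 0.446 FPKM in HKO livers and between 0.227 and 0.499 FPKM in flox livers and was not tested.

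Carriers of cofactors and nucleotides include the most genes of any role. Of 10 genes in this role, 8 were tested, 6 had a lower mean in HKO livers, and 3 did not overlap between the groups, all 3 lower, which is 37.5% of the 8 against 12.6% of all genes tested. By limma with BH adjustment 0 of the 8 passed in either direction, while 3 had an unadjusted p under 0.05, all lower, which is 37.5% against 17.0% of all genes tested. Both counts include Slc25a33, which reached the level for testing only through the flox libraries, where it was higher, so its difference lends them no weight. The median difference was -0.43. The roles were drawn up with earlier results of these data known, so shares by role only describe these lists.

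Slc25a42 brings coenzyme A into the matrix, where it is needed for fatty acid oxidation. It is on the minus strand of chromosome 8 at 70184340 to 70212281 in GRCm38.p6, with no overlapping gene. It had 38.4, 32.8 and 36.7 FPKM in HKO livers, against 73.3, 60.3 and 64.1 FPKM in flox livers. All 3 HKO libraries were close together and well below the lowest flox library, and the means were 36.0 ± 2.86 FPKM in HKO livers and 65.9 ± 6.70 FPKM in flox livers (SD, n = 3 each). The difference was -0.85 (SE 0.14, 95% interval -1.18 to -0.53), with a limma BH-adjusted p of 0.0579, which missed the threshold. With genes of at least 5 FPKM alone it was 0.0472, and 0.0444 with limma voom on the recovered reads. Slc25a42 passed in these 2 of 16 alternatives, and its limma BH-adjusted p was 0.155 without a filter and 0.0802 to 0.200 with 1 library left out. Slc25a16, another carrier linked to coenzyme A, had 24.7, 16.6 and 17.8 FPKM in HKO livers, against 19.9, 20.7 and 18.1 FPKM in flox livers, a difference of -0.01 with mixed libraries. The ratio of Slc25a42 to Slc25a16 within a library was 1.55, 1.98 and 2.06 in HKO livers, against 3.69, 2.92 and 3.54 in flox livers. The log2 ratio differed by -0.86 (SE 0.16), with a two-sided exact permutation p of 0.1, the smallest that 3 against 3 libraries allow, and a BH-adjusted p of 0.2 over the 6 ratios compared. Slc25a42 was already apart by itself, so the ratio is not an independent result.

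The RefSeq start of Slc25a42 is shown because this carrier lay nearest to the threshold after Slc25a30. Its window is chr8:70212232-70212531 on the minus strand of GRCm38.p6, 65.7% of its bases are G or C, and it holds neither motif.
Slc25a42: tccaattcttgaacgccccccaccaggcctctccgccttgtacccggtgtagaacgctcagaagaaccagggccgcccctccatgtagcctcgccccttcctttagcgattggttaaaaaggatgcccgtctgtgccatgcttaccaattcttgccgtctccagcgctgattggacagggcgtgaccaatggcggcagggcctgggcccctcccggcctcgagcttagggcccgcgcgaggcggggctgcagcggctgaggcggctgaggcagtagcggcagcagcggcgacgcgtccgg

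Slc25a47, a carrier found mainly in liver, had the highest mean level of the 33 tested. It was placed among the cofactor and nucleotide carriers and is among their 3 genes at an unadjusted p under 0.05 by limma. What it carries was not tested. It had 347, 293 and 429 FPKM in HKO livers, against 758, 716 and 397 FPKM in flox livers. Flox library 3 lay among the HKO libraries, so the groups overlapped, and the difference was -0.77 (SE 0.28), with a limma BH-adjusted p of 0.229. Slc25a51, which carries NAD+ into the matrix, had 26.9, 12.7 and 26.7 FPKM in HKO livers, against 54.5, 47.3 and 20.7 FPKM in flox livers. Its flox library 3 was likewise among the HKO values, and the difference was -0.82 (SE 0.43, with a limma BH-adjusted p of 0.377). The ratio of Slc25a47 to Slc25a51 was 12.9, 23.0 and 16.1 in HKO livers, against 13.9, 15.1 and 19.2 in flox livers, a log2 difference of 0.08 with an exact permutation p of 0.8. Leaving out HKO library 2 or flox library 3 gave Slc25a51 differences of -0.48 and -1.24, neither of which passed limma.

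The remaining cofactor carriers named here were chosen after their values were seen. Slc25a33, a pyrimidine nucleotide carrier, had 0.477, 0.600 and 0.616 FPKM in HKO livers, against 1.0, 2.17 and 1.29 FPKM in flox livers. The groups were apart, but its mean reached the level for testing only through the flox libraries, and the difference was -0.64, with a limma BH-adjusted p of 0.165. Slc25a26, which imports the methyl donor S-adenosylmethionine, had 1.31, 1.59 and 1.75 FPKM in HKO livers, against 2.08, 2.0 and 1.84 FPKM in flox livers. Those groups nearly touched, and the difference was -0.22. Slc25a26 shares 131 bases with Lrig1 on the other strand, and the sources used here do not give the strand setting of the counting. Slc25a17, a peroxisomal carrier of cofactors, differed by 0.01 with overlapping groups. Slc25a36 and Slc25a32 lay under 0.5 FPKM in each library and were not tested.

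The 2 mitoferrins, which bring iron into the matrix for heme and iron-sulfur clusters, differed in opposite directions. Slc25a37 (mitoferrin 1), known for its use in developing red cells, had 25.3, 16.6 and 14.7 FPKM in HKO livers, against 11.3, 8.91 and 11.5 FPKM in flox livers. Slc25a28 (mitoferrin 2), the more widely expressed form, had 4.94, 6.0 and 5.40 FPKM in HKO livers, against 9.82, 8.49 and 9.41 FPKM in flox livers. The groups were apart for each gene, higher in HKO for Slc25a37 and lower in HKO for Slc25a28. Slc25a37 differed by 0.75 (SE 0.21), with a limma BH-adjusted p of 0.154. Slc25a28 differed by -0.67 (SE 0.13), with a limma BH-adjusted p of 0.0731, so neither passed. Without HKO library 1, which was the highest, the Slc25a37 difference was 0.53.

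Within each library the ratio of Slc25a37 to Slc25a28 was 5.12, 2.76 and 2.73 in HKO livers, against 1.15, 1.05 and 1.22 in flox livers. HKO livers thus had a ratio well above 2 in each library, and flox livers had one near 1. The log2 ratio differed by 1.57 (SE 0.31), with an exact permutation p of 0.1 and a BH-adjusted p of 0.2 over the 6 ratios. With each gene already apart in its own direction, the ratio had to be apart as well. Its permutation p was thereby fixed and adds nothing to the results of the single genes. Red cell markers went the other way from Slc25a37. The 8 found of 9 summed to 105 to 209 FPKM in HKO livers, against 352 to 674 FPKM in flox livers, each of the 5 tested was lower without overlap, and Hbb-bt, a beta globin gene, fell, with a limma BH-adjusted p of 0.0373. Slc4a1, the anion exchanger of the red cell membrane, was at 0 in each HKO library. The part of red cells in the mitoferrin levels was not tested. Slc25a28 overlaps the lncRNA BC037704 by 333 bases on the other strand, and Slc25a37 lies over Gm31896 and Gm20236, both listed at 0.

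**Figure D2:**
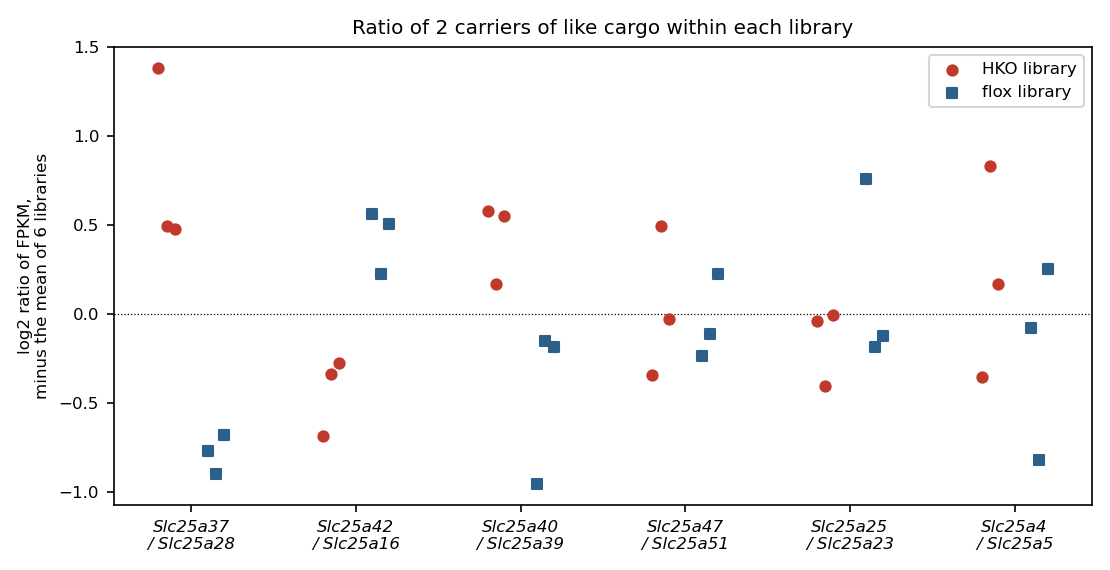
Within-library log2 ratios of 6 pairs of related carriers, each centred on the mean of its 6 libraries, HKO left of flox. The groups are apart for Slc25a37 to Slc25a28, Slc25a42 to Slc25a16 and Slc25a40 to Slc25a39, and mixed for the other 3 pairs.

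Organic acid carriers link the matrix to cytosolic lipid and glucose synthesis. Of 6 in this role, 5 were tested and 0 passed limma with BH adjustment in either direction, with 2 at an unadjusted p under 0.05, both lower, and 0 by limma voom. Those 2, Slc25a34 and Slc25a10, are 40.0% of the 5, against 17.0% of all genes tested. This role, too, was drawn up with earlier results known, so the share is a description only. Slc25a34, a carrier related to the dicarboxylate carriers, is on the minus strand of chromosome 4 at 141618819 to 141624002 in GRCm38.p6 and overlaps no other gene. It had 1.40, 1.30 and 2.87 FPKM in HKO livers, against 6.67, 6.28 and 3.43 FPKM in flox livers. HKO library 3 and flox library 3 were the closest pair, and the groups did not overlap. The means were 1.86 ± 0.882 FPKM in HKO livers and 5.46 ± 1.77 FPKM in flox livers (SD, n = 3 each). The difference was -1.18 (SE 0.28), with a limma BH-adjusted p of 0.106, and it ranged from -1.43 to -1.03 with 1 library left out.

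The RefSeq start of Slc25a34 is shown because, among carriers whose groups were apart, only Slc25a30 had a larger lower difference. Its window is chr4:141623785-141624084 on the minus strand of GRCm38.p6, and the deposited gene reaches further upstream, so most of the window lies inside the counted gene. The capitals mark TGACCT, the half-site AGGTCA read on the other strand, which begins 119 bases before the RefSeq start. G and C make up 59% of the window.
Slc25a34: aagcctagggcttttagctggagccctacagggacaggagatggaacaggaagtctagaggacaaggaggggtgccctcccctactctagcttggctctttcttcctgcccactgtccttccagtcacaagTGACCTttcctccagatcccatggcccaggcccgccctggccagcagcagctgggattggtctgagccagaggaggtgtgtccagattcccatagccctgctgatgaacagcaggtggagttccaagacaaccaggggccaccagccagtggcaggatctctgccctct

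Across the family 36 of the 47 carriers were found in the RefSeq promoter table of GRCm38.p6, with 45 windows. AGGTCA was in 6 of the 45, those of Slc25a34, Slc25a39, Slc25a45, Slc25a47, Ucp1 and Ucp3, and in 5340 of 32851 windows of all genes, or 16.3%. The repeat AGGTCANAGGTCA was in 0 of the 45 and in 13 of 32851, or 0.0396%. Median G and C content was 59% in the carrier windows and 52.7% in all windows. A match describes these letters alone.

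Slc25a10, the dicarboxylate carrier that exchanges malate or succinate for phosphate, had 39.8, 40.5 and 50.03 FPKM in HKO livers, against 61.9, 56.8 and 50.04 FPKM in flox livers. The third libraries of both groups were all but equal, so the groups were apart by less than 0.01 FPKM. The difference was -0.37, with a limma BH-adjusted p of 0.279. Slc25a10 is named here after its values were seen. Slc25a21, the oxodicarboxylate carrier, differed by 0.20 with overlapping groups, and Slc25a35 lay under 0.6 FPKM in each library.

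For 2 organic acid carriers 1 library set the result. Slc25a1, which exports citrate for fatty acid synthesis, had 0.409, 0.829 and 0.974 FPKM in HKO livers, against 0.831, 9.33 and 1.27 FPKM in flox livers. Flox library 2, with 435 reads, stood alone, and this library took the mean past 1 FPKM. The difference was -1.03 (SE 0.62, with a limma BH-adjusted p of 0.438), and -0.25 without that library. Slc25a11, the oxoglutarate and malate exchanger of the malate-aspartate shuttle, had 6.10, 0.352 and 0.276 FPKM in HKO livers, against 0.128, 0.205 and 0.237 FPKM in flox livers. HKO library 1, with 378 reads, stood alone and took the mean past 1 FPKM, while the lowest HKO value was just above the highest flox value. Slc25a11 is thus 1 of the 3 higher carriers without overlap, beside Slc25a37 and Slc25a40. The difference was 0.96 (SE 0.63, with a limma BH-adjusted p of 0.474), and 0.14 without it.

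Slc25a1 and Slc25a11 have a deposited gene length greater than their own span on the genome, 3356 against 3009 bases and 3871 against 3405 bases. The same holds for none of the other 45 carriers, for 690 of all 41838 genes and for 26 of the 10453 tested. Among all genes tested 22, or 0.210%, had 1 library at least 4-fold above the next. Slc25a11 shares 181 bases with Rnf167 on the other strand, which had 3.48, 0.147 and 3.40 FPKM in HKO livers, against 0.0908, 0.317 and 0.432 FPKM in flox livers. Gapdh, a glycolytic enzyme of most cells, had 2.18, 4.07 and 58.7 FPKM in HKO livers, against 3.91, 2.79 and 3.82 FPKM in flox livers, though its deposited length is within its span. The cause of these single high libraries was not tested, and the levels of Slc25a1 and Slc25a11 are best read as uncertain.

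Carriers of adenine nucleotides and phosphate, which supply ATP synthase and send ATP out, held no gene that passed the test. Of 9, 5 were tested and 0 passed limma with BH adjustment, with 0 at an unadjusted p under 0.05 and 0 by limma voom on the recovered reads. Slc25a5, the main ADP/ATP exchanger here, had 257, 226 and 293 FPKM in HKO livers, against 231, 279 and 241 FPKM in flox livers. Slc25a3, the phosphate carrier, had 199, 150 and 160 FPKM in HKO livers, against 187, 181 and 173 FPKM in flox livers. Both genes had mixed libraries, with differences of 0.04 (95% interval -0.32 to 0.41) for Slc25a5 and -0.10 (95% interval -0.45 to 0.26) for Slc25a3.

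Slc25a4, the heart and muscle form of the ADP/ATP exchanger, had 2.31, 4.63 and 3.79 FPKM in HKO livers, against 2.52, 1.82 and 3.31 FPKM in flox livers. Its difference was 0.35 with overlapping groups, and the log2 ratio of Slc25a4 to Slc25a5 differed by 0.43 with an exact permutation p of 0.5. Slc25a4 and Slc25a5 are close paralogs, and whether reads were shared between them was not tested. Slc25a31, the testis form, had 1 read in all, in flox library 1.

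Among the calcium-regulated carriers of ATP-magnesium and phosphate, the groups overlapped for both that were tested. Slc25a23 had 58.2, 74.3 and 76.0 FPKM in HKO livers, against 68.9, 82.9 and 76.4 FPKM in flox livers, a difference of -0.13. Slc25a25 had 31.0, 30.7 and 41.4 FPKM in HKO livers, against 63.9, 39.8 and 38.3 FPKM in flox livers, a difference of -0.43. Flox library 1 was the high value of Slc25a25, the other 5 were mixed, and the ratio of Slc25a25 to Slc25a23 differed by -0.30 on the log2 scale with an exact permutation p of 0.6. Without flox library 1 the Slc25a25 difference was -0.19. Slc25a25 shares 1014 bases with Naif1 on the other strand, which was under 1 FPKM. Slc25a24 had 2, 7 and 7 reads in HKO livers, against 0, 0 and 2 reads in flox livers, and was too low to be tested. HKO library 1 at 0.0185 FPKM and flox library 3 at 0.0180 FPKM rest on 2 reads each. Its groups were thus apart in FPKM only through the library size used. Slc25a41 and Slc25a54 were listed at 0 throughout, where 3 reads would have given at most 0.0800 and 0.140 FPKM.

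Among the carriers of amino acids and glutathione 7 of 9 were tested and 0 passed limma with BH adjustment, with 1 at an unadjusted p under 0.05, Slc25a40, which is 14.3% of the 7 against 17.0% of all genes tested, and 0 by limma voom. Slc25a39 and Slc25a40 carry glutathione, the main thiol antioxidant, into the matrix. Slc25a39 had 158, 144 and 156 FPKM in HKO livers, against 176, 157 and 126 FPKM in flox livers. Slc25a40 had 2.08, 1.42 and 2.01 FPKM in HKO livers, against 0.799, 1.25 and 0.974 FPKM in flox livers. The abundant Slc25a39 was mixed between the groups at a difference of 0.01, while each HKO library was above each flox library for Slc25a40, at a difference of 0.50 and a limma BH-adjusted p of 0.180. The log2 ratio of Slc25a40 to Slc25a39 differed by 0.86 (SE 0.29), with an exact permutation p of 0.1 and a BH-adjusted p of 0.2. That p is the smallest that 3 against 3 libraries allow. Slc25a40 was already apart by itself, so the ratio is not an independent result.

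Slc25a22, a glutamate carrier, had 54.3, 99.4 and 122 FPKM in HKO livers, against 188, 120 and 118 FPKM in flox livers. HKO library 1 was the lowest and flox library 1 the highest, and the other 4 libraries were close. The difference was -0.66 (SE 0.33), with a limma BH-adjusted p of 0.354, and -0.33 without HKO library 1. Slc25a12, an aspartate and glutamate exchanger, Slc25a29, which carries basic amino acids, Slc25a38, needed for heme synthesis, and Slc25a44, which carries branched-chain amino acids, differed by -0.18 to 0.01 with overlapping groups. Slc25a18, the second glutamate carrier, had 5 to 10 reads in HKO livers and 6 to 15 reads in flox livers, and Slc25a2, an ornithine carrier, had 1 read in HKO livers and 7 in flox livers.

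Of the 5 carriers with other or unsettled roles, 3 were tested. Slc25a45 had 5.02, 5.02 and 6.40 FPKM in HKO livers, against 8.17, 10.1 and 10.6 FPKM in flox livers. The groups were apart, and the difference was -0.71 (SE 0.15), with a limma BH-adjusted p of 0.0865. Slc25a45 was named after its values were seen, as were Slc25a40 and the untested carriers. Slc25a46, an outer membrane member of the family that acts in mitochondrial fission, differed by 0.01, and Slc25a48 by 0.14, both with overlapping groups. Slc25a43 had 0 reads in each HKO liver, against 0, 7 and 1 reads in flox livers, and Slc25a53 lay under 0.2 FPKM in each library.

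**Figure D3:**
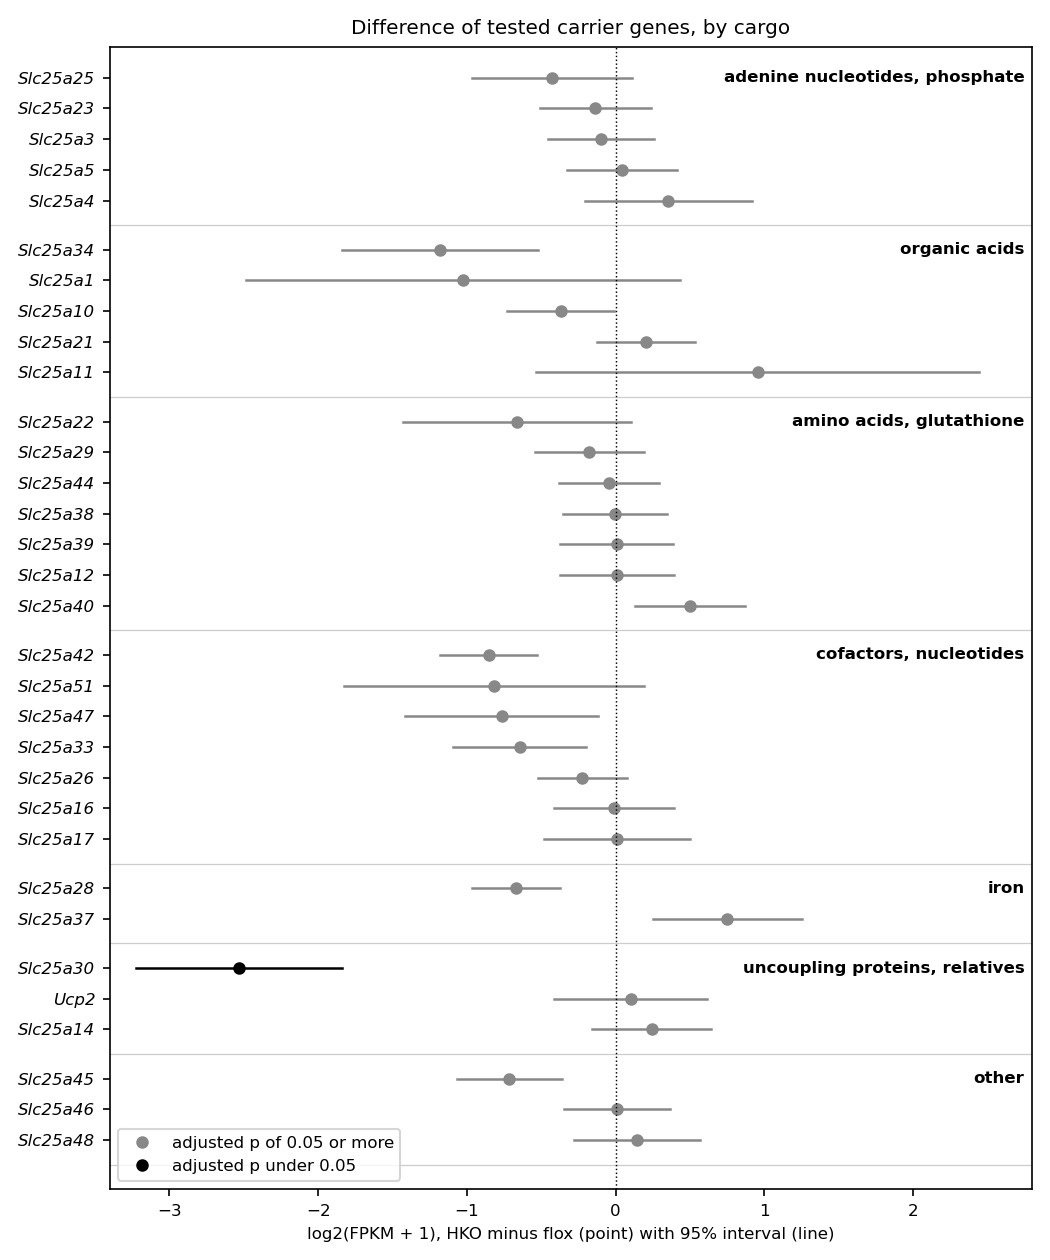
HKO minus flox difference on the log2(FPKM + 1) scale with its 95% interval for 32 tested carriers, grouped by what they carry; black marks an adjusted p under 0.05. Slc25a30 at -2.53 is the one gene in black, and the intervals of Slc25a1 and Slc25a11 are the widest.

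The lowest and the highest values fell unevenly over the libraries. HKO library 2 held the lowest level of 14 of the 33 tested carriers, or 42.4%, against 16.4% of all genes tested, and HKO library 3 the lowest of 0. Flox library 1 held the highest level of 11, or 33.3%, against 18.0% of all genes tested. The authors' library size was 1.08 times the recovered reads in HKO library 2 and 0.952 times in flox library 1. Per recovered read, HKO library 2 was lowest for 9 of the 33, or 27.3%, against 10.2% of all genes tested, and flox library 1 was highest for 8, or 24.2%, against 12.1%. Mitochondrially encoded genes took 5.67%, 4.68% and 4.35% of reads in HKO livers and 3.66%, 4.22% and 4.38% in flox livers. Their part in the carrier levels was not tested.

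Other routes across the mitochondrial membranes were set beside the carriers. Of 37 such genes 32 were tested, and 0 passed limma with BH adjustment or limma voom, while 4 higher and 3 lower genes had an unadjusted p below 0.05, which is 21.9% of the 32 against 17.0% of all genes tested. The groups did not overlap for 18.8% of the 32 as higher and 9.38% as lower, against 12.8% and 12.6% of all genes tested. With genes of at least 5 FPKM alone, 1 passed as lower. Among 15 tested transporters of the inner membrane outside the family, 11 had a higher mean in HKO livers and 4 a lower one, at a median difference of 0.14. Mpc1, a subunit of the pyruvate carrier, had 13.5, 14.7 and 10.3 FPKM in HKO livers, against 9.08, 9.89 and 7.28 FPKM in flox livers, and Letm1, a cation exchanger, had 8.01, 9.57 and 10.5 FPKM in HKO livers, against 16.0, 16.4 and 13.4 FPKM in flox livers. The groups were apart for both genes, with differences of 0.50 for Mpc1 and -0.65 for Letm1.

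The 5 outer membrane genes listed were the channels Vdac1, Vdac2 and Vdac3, together with Mtch1 and Mtch2. Their median difference was 0.23, with 4 of 5 means higher in HKO livers, against 5022 of all 10453 genes tested. The groups did not overlap for 2 of the 5, Vdac1 and Vdac3, both higher, which is 40.0% against 12.8% of all genes tested. The same 2 had an unadjusted p under 0.05 by limma, or 40.0% against 17.0%, and 0 passed with BH adjustment. Vdac1, the main metabolite pore, had 108, 78.3 and 88.8 FPKM in HKO livers, against 65.4, 74.7 and 64.7 FPKM in flox livers. Its difference was 0.41, with a limma BH-adjusted p of 0.256, and that of Vdac3 was 0.45. Most genes listed for carrier import had lower means. Of 12 tested genes 11 had a lower mean in HKO livers, against 5431 of all 10453 genes tested, at a median difference of -0.22. At an unadjusted p under 0.05 by limma there were 2, both lower, or 16.7% of the 12 against 17.0% of all genes tested. Agk, on the same list but too low to be tested, was higher in HKO livers without overlap. It had 1.10, 1.18 and 1.16 FPKM in HKO livers, against 0.667, 0.578 and 0.918 FPKM in flox livers. Timm9, a chaperone of the intermembrane space that guides carriers to the inner membrane, had 20.5, 17.8 and 18.8 FPKM in HKO livers, against 35.1, 33.1 and 30.9 FPKM in flox livers. The Timm9 groups were far apart, and the difference was -0.77 (SE 0.13), with a limma BH-adjusted p of 0.0592. These single genes were named after their values were seen, and no difference between the groups of genes was tested.

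**Figure D4:**
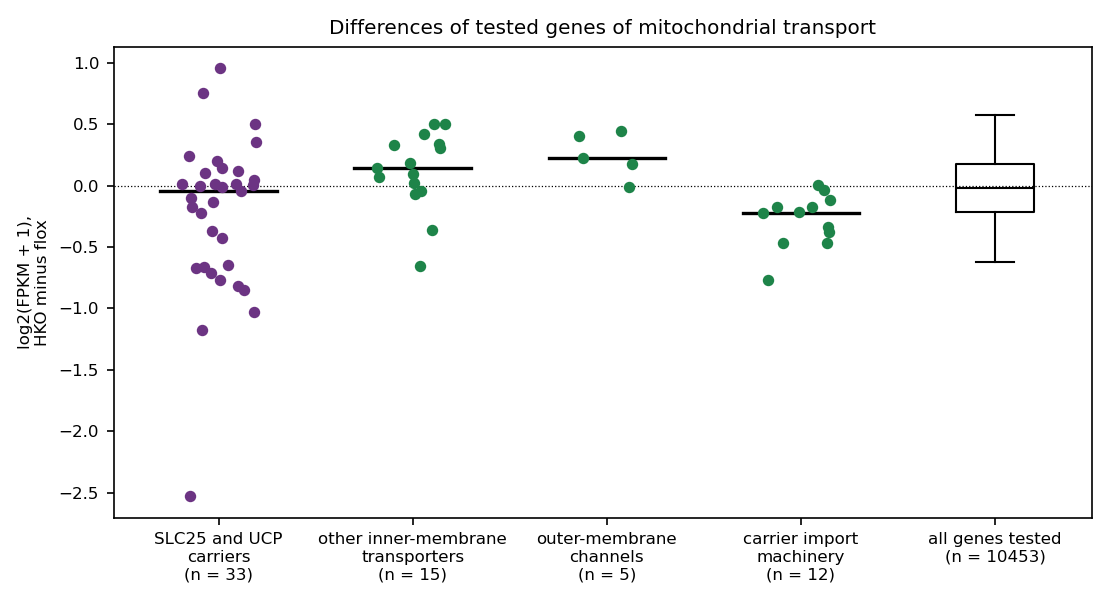
HKO minus flox differences on the log2(FPKM + 1) scale of the 33 tested carriers, 15 other inner membrane transporters, 5 outer membrane genes (labelled channels) and 12 genes of carrier import. Lines mark their medians. A box stands for all 10453 genes tested (box from the 25th to the 75th percentile, whiskers from the 5th to the 95th). The medians are -0.05, 0.14, 0.23 and -0.22, and Slc25a30 is the lowest point.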

How the data were processed

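Poly(A) RNA of 6 mouse livers, 3 HKO and 3 flox, was sequenced in read pairs, per the labels' protocols. Reads were aligned to GRCm38.p6 with HISAT2 2.0.5 and counted with featureCounts 1.5.0-p3, per the series text, and CASAVA and DESeq2 1.20.0 are also named, per the submitters' processing notes. The sources used here do not give the annotation, strand setting or treatment of multiply matching reads. The values the authors deposited are FPKM. FPKM times gene length gave whole reads for 100% of values within 0.001, and the library size used was 0.925 to 1.08 times their sum.

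Values were computed with R 4.3.3, limma 3.58.1, Python 3.11.15 and scipy 1.17.1. limma (trend, robust) was run on log2(FPKM + 1) for genes with a mean of at least 1 FPKM, HKO minus flox, without covariates, with BH adjustment at 0.05. The script was tested on simulated data. Alternatives changed the pseudocount, filter, scaling, variance model and replicate block, left out each library, or used limma voom on the recovered reads; scaling to their sum was added after seeing the data. Counting floors were set at 3 reads and cover counting error only. Libraries of the same group differed beyond sampling noise, by chi-square per degree of freedom of 28.3 to 63.0.

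The members, roles and companion lists were chosen with earlier results of these data known. The carriers given per library were those that passed, the 6 of highest level, the 8 of largest difference, the uncoupling proteins, the mitoferrins and close paralogs; others named were chosen after their values were seen. A tested carrier and 1 marker gene are counted in the totals but not reported here by name.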

Additional observations from a re-analysis of the deposited data

How the results depend on the processing

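Slc25a30 kept its direction under all 16 alternatives and passed limma under 10, at differences of -3.13 to -1.54, the smallest with a pseudocount of 5. Besides the libraries left out, it lost the call without a filter (adjusted p of 0.111 by limma). Carriers passing as lower, 1 in the main analysis, numbered 0 without a filter, 2 with a mean of at least 5 FPKM, 2 with voom and 0 to 1 with a library left out. Other transport genes passing as lower, 0 in the main analysis, numbered 1 with a mean of at least 5 FPKM. Over all genes, the 28 higher became 18 with a pseudocount of 0.1, 0 without a filter, 1 with the replicate block, 43 with voom and 0 to 29 with a library left out. The 23 lower became 1 without a filter, 8 with the block and 1 to 38 with a library left out. The median carrier difference was 0.027 with TPM, 0.024 on the sum of recovered reads and -0.15 to -0.016 with a library left out; these scalings moved the median of all genes by at most 0.07.

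The signs of small differences turned. Slc25a16 gave 0.067 with TPM, 0.0069 with voom and 0.063 on the scale of the read sum, Slc25a38 0.067, 0.015 and 0.060, and Slc25a44 0.027 with TPM and 0.024 on that scale. With 1 library removed, Slc25a5 ranged from -0.049 to 0.14, Slc25a39 from -0.13 to 0.12, Slc25a17 from -0.22 to 0.15, Slc25a16 from -0.17 to 0.10, Ucp2 from -0.029 to 0.32, Slc25a44 from -0.13 to 0.064, Slc25a46 from -0.13 to 0.093, Slc25a38 from -0.11 to 0.075 and Slc25a12 from -0.10 to 0.12. Over the carriers reported and the alternatives, 463 values kept direction and call, 29 turned, 2 gained a call and 6 lost one. The cause was not tested.

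Same-numbered libraries correlated in their deviations at 0.15, -0.14 and -0.05, and libraries of unlike number at -0.16 to 0.25. So few values cannot tell whether the libraries were paired. With the replicate block Slc25a30 had an adjusted p of 0.0355 and Slc25a42 one of 0.121 by limma. A left-out library leaves 2 in its group. Depth limited the 8 carriers with a count of 0 in some library.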
